A study of Arabidopsis thaliana with 8 samples.

Results

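Ribosome footprints on mitochondrial mRNAs were compared directly between flowers of 2 Arabidopsis thaliana mutants, mtl1 and mtsf1, without reference to the wild type. The comparison used 4 Ribo-seq libraries of the 8 libraries in the series, chosen by genotype label alone: mtl1 A and B, and mtsf1 A and B. It covered all 33 mitochondrial genes in the deposited table. Ribo-seq sequences the short mRNA fragments that translating ribosomes shield from nuclease. Both mutants are in the Col-0 background and are labelled as mutants of pentatricopeptide repeat (PPR) proteins, mtl1 for translation of the nad7 mRNA and mtsf1 for stability of the nad4 mRNA. The labels name no allele. Plants of both genotypes grew for 10 to 12 weeks in long days, flowers were harvested at the same time, and each library started from about 2.5 g of flowers. Nothing in the labels tells whether libraries A and B of a genotype stem from different plants. A p-value here therefore reflects library-to-library spread only, and that spread could be technical.

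Plant mitochondria keep a small genome that encodes some subunits of the respiratory chain and of the ATP synthase, cytochrome c maturation factors, ribosomal proteins and an intron maturase. The rest of the mitochondrial proteome is made from nuclear genes. PPR proteins are nuclear-encoded RNA-binding proteins that act on particular organellar transcripts. MTSF1 protects the 3′ end of the nad4 mRNA from degradation, and MTL1 is needed to translate nad7 and also for efficient splicing of its transcript. NAD4 is a proton-pumping subunit in the membrane arm of complex I (NADH dehydrogenase), and NAD7 is a subunit of its matrix arm near the quinone site, so the labels place the defects of the mutants in different arms of the same complex. A footprint level combines the amount of mRNA with its translation. No mutant RNA-seq was used here, so mRNA amount and translation cannot be told apart, and neither can fewer cells of a type and less RNA per cell in whole flowers.

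A few stretches of the mitochondrial genome are shown to place genes that recur in the results. They come from the RefSeq sequence of TAIR10.1, and the authors may have aligned to another build. The table's 33 genes were matched to its annotation by symbol, which placed 31 of them, all but the atp6 copies. The first 60 coding bases of nad7 and of nad4 open the reading frames whose footprints were lowest in mtl1 relative to mtsf1 and in mtsf1 relative to mtl1, with the start codon in capitals. The third stretch is the 134 bases shared by the end of rps3 and the start of rpl16, with the start codon of rpl16 and the stop codon of rps3 in capitals. It holds 24.8% of the rpl16 coding length and 8.02% of that of rps3, so a footprint inside it fits both genes.
nad7, MT:245271-245330, minus strand: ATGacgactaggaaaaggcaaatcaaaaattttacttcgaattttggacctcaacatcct
nad4, MT:215503-215562, minus strand: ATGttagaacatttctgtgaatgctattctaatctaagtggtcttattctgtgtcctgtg
rps3 and rpl16, MT:23285-23418, plus strand: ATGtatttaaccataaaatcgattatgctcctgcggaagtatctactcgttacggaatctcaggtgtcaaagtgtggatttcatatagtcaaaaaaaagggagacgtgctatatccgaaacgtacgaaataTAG

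The deposited values are normalized counts, and the reads behind them are unknown. Over the 33 genes they summed to 259933 and 265020 in mtl1, and to 227755 and 216316 in mtsf1. Libraries of 1 genotype lay closer to each other than to the other genotype. Without nad4 and nad7, the root mean square difference over 31 genes was 0.33 log2 units between the mtl1 libraries and 0.33 between the mtsf1 libraries, and it was 0.78 to 0.86 in the 4 pairs across genotypes. Between single libraries, the median size of the difference over the same 31 genes was 0.32 to 0.49 log2 units in the 4 pairs across genotypes, 0.20 between the mtl1 libraries and 0.27 between the mtsf1 libraries.

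nad7 and nad4 separated the mutants most, in opposite directions. nad7 had 460 and 394 normalized counts in mtl1, against 7839 and 6273 in mtsf1. It was 16.4-fold lower in mtl1 (95% interval 12.0 to 22.5, n = 2 libraries each). nad4 had 10044 and 10721 normalized counts in mtl1, against 216 and 207 in mtsf1, and was 48.8-fold higher in mtl1 (95% interval 36.1 to 66.2). By limma with Benjamini-Hochberg adjustment over 33 genes, the adjusted p was 2.9e-13 for nad7 and 3.7e-16 for nad4. The 2 intervals do not overlap in size, so the gap was wider at nad4 than at nad7. Some footprints were still counted on each mutant's own target. Per kilobase of coding length, mtl1 had 360 ± 39.4 normalized counts on nad7 and mtsf1 had 142 ± 4.28 on nad4 (SD, n = 2 each). nad4 had the lowest level per kilobase of the 31 placed genes in mtsf1. nad7 ranked 29 of 31 in mtl1, where rpl16 (351 ± 90.4) and matR (121 ± 8.61) were lower still. Within a library, the ratio of nad4 to nad7 was 21.8 and 27.2 in mtl1, against 0.0276 and 0.0330 in mtsf1.

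Across the table, limma called 8 of 33 genes (24.2%) at an adjusted p below 0.05. Of these, 3 were higher in mtl1 (9.09%: nad4, nad2 and atp8) and 5 were lower in mtl1 (15.2%: nad7, matR, rpl16, rps3 and rpl2). After scaling the libraries to equal totals, 12 genes passed, 2 higher and 10 lower. That scaling shifted the median log2 fold change of all genes to -0.34, against -0.10 as deposited, because the mtl1 totals were higher. With each gene's own variance and no sharing of variance among genes, 4 passed: nad4, nad7, matR and rpl2. In 22 of 33 genes (66.7%) both libraries of a mutant lay above both of the other, 11 with mtl1 above and 11 with mtl1 below. Of those 22 genes, 14 were not called.

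**Figure D1:**
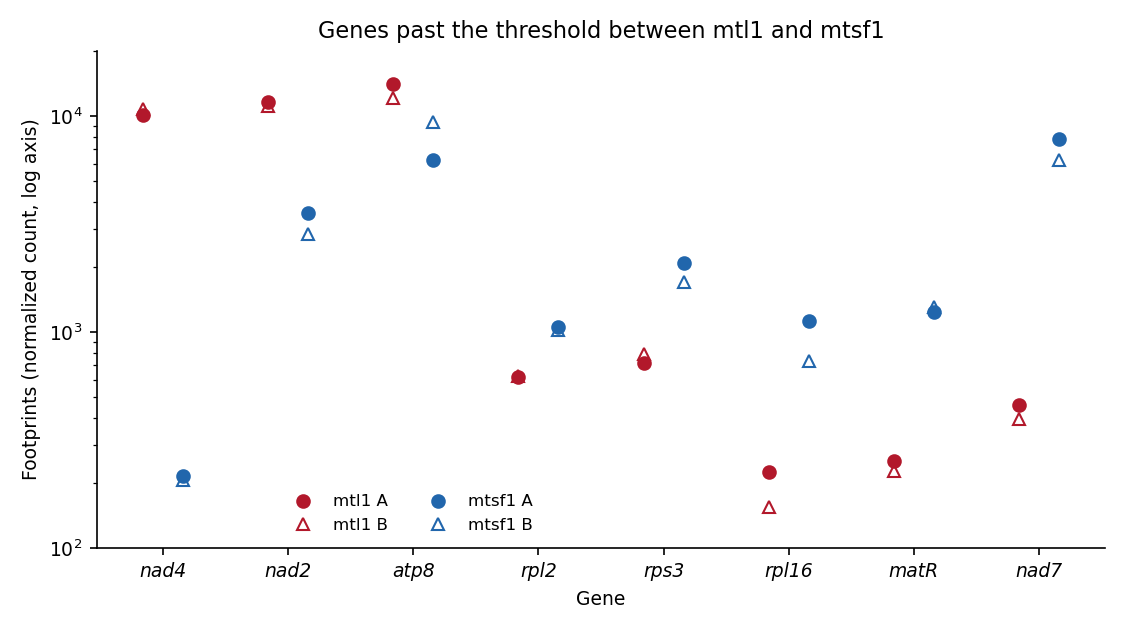
Normalized footprint counts (log axis) of the 8 genes past the threshold, in mtl1 (red, left) and mtsf1 (blue, right); filled circles are library A and open triangles library B. Genes run from the highest to the lowest fold change of mtl1 over mtsf1, and in all 8 the libraries of the mutants do not overlap, with the narrowest gap at atp8 (12107 in mtl1 B, 9344 in mtsf1 B).

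Within complex I, nad2 was the only called gene beside the 2 targets. It encodes a proton-pumping membrane arm subunit and is assembled from separately transcribed pieces by trans-splicing. Its footprints numbered 11643 and 11068 in mtl1, against 3531 and 2833 in mtsf1, 3.59-fold higher in mtl1 (95% interval 2.63 to 4.90, limma adjusted p = 1.8e-07). With its own variance alone nad2 missed the threshold narrowly (ordinary t test, adjusted p = 0.051), and it passed under the other 14 alternative settings. On the per-kilobase scale nad2 had 7741 ± 277 in mtl1 and 2169 ± 336 in mtsf1.

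The other 6 complex I genes did not pass. nad5, the membrane arm's distal pump subunit, had 19061 and 14767 normalized counts in mtl1, against 13715 and 12360 in mtsf1, a log2 fold change of 0.37 ± 0.22 (SE). nad6, another membrane arm subunit, had 3323 and 4965 in mtl1, against 5432 and 6553 in mtsf1. Its log2 fold change of -0.55 (95% interval -1.04 to -0.073) missed the threshold (limma adjusted p = 0.0783), and it was called without mtl1 B (-0.84) and after scaling to equal totals (-0.80). The small membrane subunits nad3 (0.19) and nad4L (-0.17), the nad1 subunit at the junction of the arms (-0.10) and the matrix arm subunit nad9 (-0.18) all had 95% intervals within 2-fold. The sign of nad3 turned after scaling to equal totals (-0.050). nad9 had 3978 and 3597 in mtl1, against 4923 and 3746 in mtsf1, so its libraries overlapped although it belongs to the same arm as nad7.

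Over the 9 complex I genes, 2 were higher in mtl1 and 1 was lower, beside 9.09% higher and 15.2% lower over all 33 genes. The other 6 did not pass, and the median log2 fold change was -0.10, the same as over all 33 genes. Per kilobase, the 8 complex I genes other than nad7 ranged from 6610 (nad9) to 14164 (nad3) in mtl1. In mtsf1 the 7 genes other than nad4 and nad2 ranged from 5954 (nad7) to 12611 (nad3). Complex I as a whole held 24.3% and 22.7% of the library totals in mtl1, against 21.8% and 22.1% in mtsf1. Without nad4 and nad7 the shares were 20.3% and 18.5% in mtl1, against 18.3% and 19.1% in mtsf1, and these overlapped. The arms were less even. The 7 membrane arm genes held 22.6% and 21.2% in mtl1, against 16.2% and 17.5% in mtsf1, and the matrix arm pair held 1.71% and 1.51% in mtl1, against 5.60% and 4.63% in mtsf1. Each arm holds a target gene, so these arm totals restate nad4, nad2 and nad7.

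**Figure D2:**
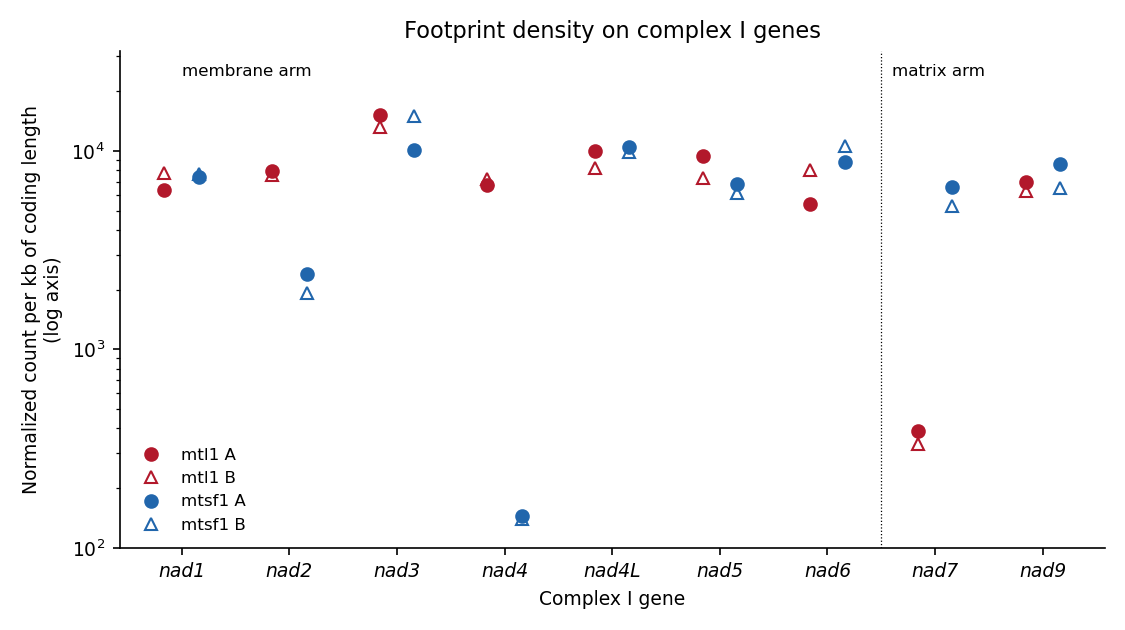
Normalized counts per kilobase of coding length (log axis) for the 9 complex I genes, membrane arm left and matrix arm right of the dotted line, in mtl1 (red, left) and mtsf1 (blue, right); filled circles are library A and open triangles library B. nad7 in mtl1 (mean 360) and nad4 in mtsf1 (mean 142) lie far below every other point, and nad2 in mtsf1 (mean 2169) lies between.

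matR showed the widest gap outside complex I. It encodes the maturase-related protein that takes part in splicing group II introns, and its frame lies inside an intron of nad1. Its footprints numbered 251 and 227 in mtl1, against 1229 and 1306 in mtsf1, 5.29-fold lower in mtl1 (95% interval 3.90 to 7.17, limma adjusted p = 2.1e-09). nad1, whose coding segments share no base with matR, had 6219 and 7537 in mtl1, against 7203 and 7480 in mtsf1. The ratio of matR to nad1 was 0.0404 and 0.0301 in mtl1, against 0.171 and 0.175 in mtsf1, so the nested gene and its host did not move together. matR had the lowest level per kilobase of the 31 placed genes in mtl1, and ranked 29 in mtsf1. It passed under all 15 alternative settings.

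Ribosomal protein genes were the list with the most calls beside complex I: 3 of 7 were lower in mtl1 and none was higher, beside 15.2% lower and 9.09% higher over all 33 genes. Of the large subunit proteins, rpl16 had 224 and 155 normalized counts in mtl1, against 1126 and 731 in mtsf1, 4.85-fold lower (95% interval 3.41 to 6.90, limma adjusted p = 5.5e-08). rpl2 had 618 and 624 in mtl1, against 1047 and 1015 in mtsf1, 1.66-fold lower (95% interval 1.23 to 2.24, limma adjusted p = 0.0105). The replicates of rpl2 lay within 0.045 log2 units of each other in both mutants. Its call was lost without mtl1 A (-0.72, limma adjusted p = 0.0747) or without mtsf1 A (-0.71, limma adjusted p = 0.0544), although the fold change itself barely moved. rpl5 was at -0.35 (limma adjusted p = 0.265), with 1711 and 1638 in mtl1, against 2452 and 1849 in mtsf1.

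Of the small subunit proteins, rps3 had 716 and 787 normalized counts in mtl1, against 2090 and 1695 in mtsf1, 2.51-fold lower (95% interval 1.84 to 3.42, limma adjusted p = 2.4e-05). rps7 had 604 and 620 in mtl1, against 885 and 715 in mtsf1, a log2 fold change of -0.38 that did not pass. After scaling to equal totals both rps7 (-0.62) and rpl5 (-0.59) were called. rps4 (0.29) and rps12 (0.086) lay above 0 and did not pass, and rps12 turned to -0.16 after scaling to equal totals. The median of the 7 genes was -0.38, beside -0.10 over all genes. Their share of the library total, which no scaling of a library can change, was 3.17% and 2.72% in mtl1, against 4.76% and 4.38% in mtsf1. Most of that gap lies in the called genes rpl16, rps3 and rpl2, so the share largely restates those calls. rpl16 and rps3 missed the threshold with their own variance alone (ordinary t test, adjusted p = 0.127 and 0.0840). Both passed under the other 14 alternative settings.

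rps3 and rpl16 overlap by the 134 bases printed above, and the sources used here do not say how reads there were counted, so their values may not be independent. rpl16 differed more than rps3. The ratio of rpl16 to rps3 was 0.313 and 0.197 in mtl1, against 0.539 and 0.431 in mtsf1. nad9 follows rpl16 on the same strand after 840 bases and did not share the difference, with a ratio of rpl16 to nad9 of 0.0563 and 0.0431 in mtl1, against 0.229 and 0.195 in mtsf1.

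The other measured genes that lie within 1000 bases of each other were also set side by side. nad2 (log2 fold change 1.84) lies 763 bases from rps4 (0.29) on 1 strand, and only nad2 was called. rpl2 (-0.73) lies 163 bases from mttb (-0.038), and only rpl2 was called. The ratio of rpl2 to mttb was 1.96 and 1.02 in mtl1, against 2.19 and 2.38 in mtsf1. Without mtl1 B, mttb lay at -0.51 and rpl2 at -0.74, against 0.44 and -0.72 without mtl1 A. nad3 (0.19) and rps12 (0.086), which are 45 bases apart, had intervals within 2-fold, and the ratio of rps12 to nad3 was 0.355 and 0.289 in mtl1, against 0.377 and 0.315 in mtsf1. nad4L (-0.17) and atp4 (0.29), 266 bases apart, were not called, nor were nad1 and nad5 (0.37), of which annotated pieces lie 219 bases apart. Genes with introns in their coding sequence made up 5 of the 8 calls: nad2, nad4, nad7, rpl2 and rps3 out of 9 such genes, against atp8, matR and rpl16 out of the 22 placed genes without introns, beside 24.2% called over all genes. With the targets nad4 and nad7 set aside, 3 of 7 intron-bearing genes were called, beside 6 of 31 over all genes without these targets. The intron-bearing genes that were not called were nad1, nad5, cox2 and ccmFC.

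**Figure D3:**
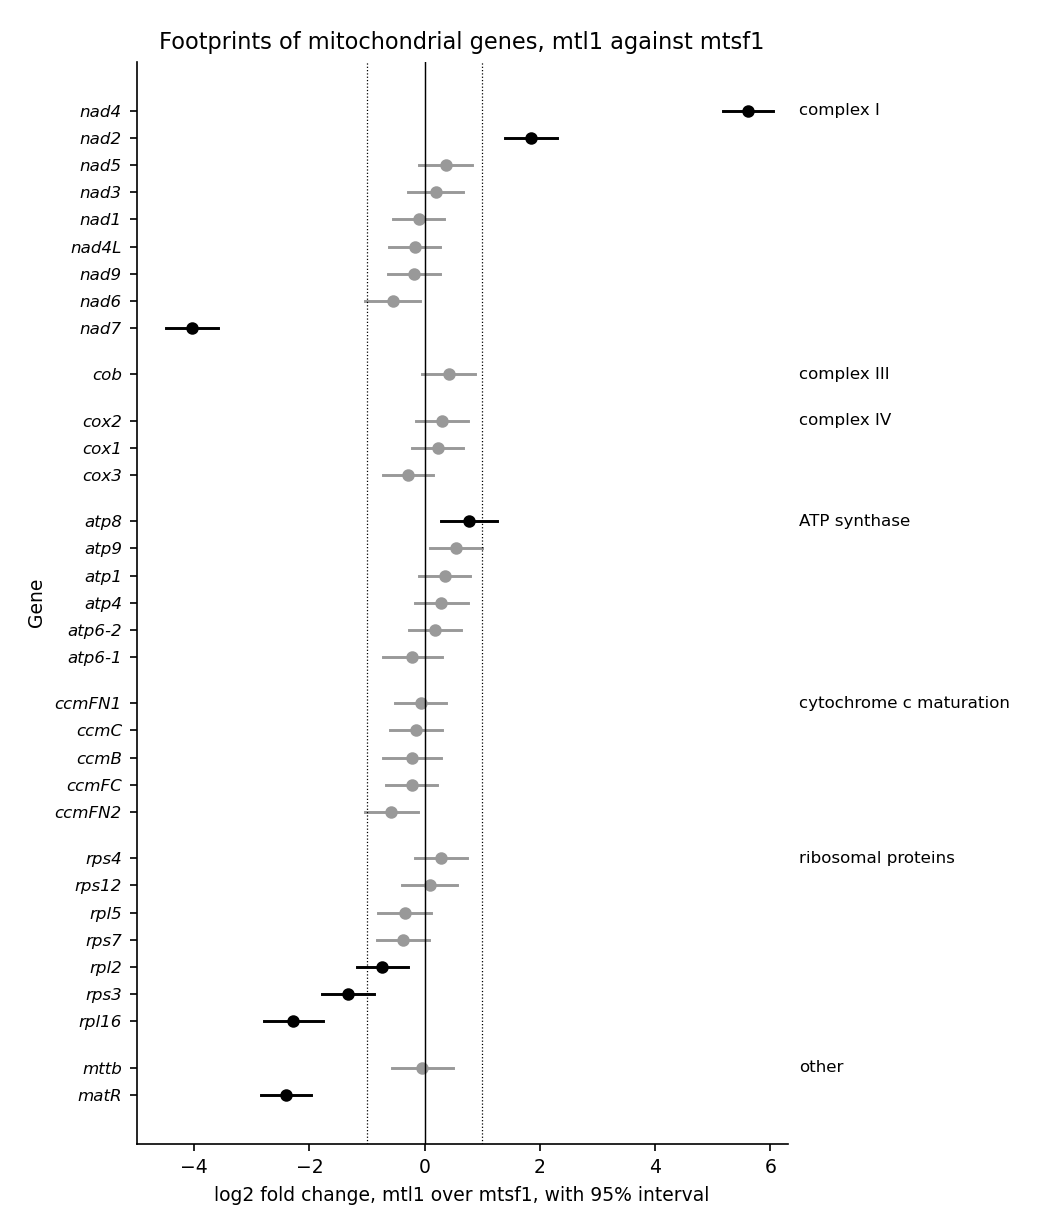
Log2 fold change of mtl1 over mtsf1 with its 95% limma interval for all 33 genes, grouped by role; black marks genes past the threshold, grey the others, and dotted lines a 2-fold difference. The 25 grey genes lie between -0.58 (ccmFN2) and 0.55 (atp9), while the black ones reach 5.61 (nad4) and -4.04 (nad7).

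In the ATP synthase, atp8 was called and 5 of 6 genes did not pass, beside 24.2% called over all 33 genes. atp8, a small membrane subunit, had 14029 and 12107 normalized counts in mtl1, against 6228 and 9344 in mtsf1, 1.71-fold higher in mtl1 (95% interval 1.23 to 2.38, limma adjusted p = 0.0125). This was the least stable call, past the threshold in 8 of 15 alternative settings, with an adjusted p from 0.0027 to 0.318. It was lost under every scaling of the libraries. The limma adjusted p was 0.12 with equal totals, 0.14 with equal totals without nad4 and nad7, and 0.12 by median ratio. Its log2 fold change fell to 0.67 without mtl1 A and to 0.48 without mtsf1 A, against 0.77 with all libraries. atp9, the proton-carrying ring subunit, had 11195 and 13196 in mtl1, against 9004 and 7687 in mtsf1. Its log2 fold change of 0.55 (95% interval 0.098 to 0.995) missed the threshold (limma adjusted p = 0.0635). It was called in 3 of 15 alternative settings, among them scaling by median ratio (0.62), and fell to 0.31 after scaling to equal totals. atp1, the catalytic alpha subunit, was at 0.35 and atp4, in the peripheral stalk, at 0.29. The membrane subunit copies atp6-1 (-0.21) and atp6-2 (0.18) are uncertain, since reads from copies of 1 gene may have been divided between them. atp6-1 had 4944 and 8629 in mtl1, against 8294 and 6892 in mtsf1, and its sign turned without mtl1 A (0.19), while that of atp6-2 turned after scaling to equal totals (-0.060). The median of the list was 0.32, falling to 0.079 after scaling to equal totals. Its share was 35.0% and 34.9% in mtl1, against 30.0% and 34.1% in mtsf1.

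Respiratory complexes III and IV did not separate the mutants at the threshold. cob, the apocytochrome b of complex III, had 24244 and 29832 normalized counts in mtl1, against 22712 and 17816 in mtsf1, a log2 fold change of 0.42 (95% interval -0.041 to 0.88). The complex IV core subunits cox1 (0.23), cox2 (0.30) and cox3 (-0.29) did not pass as deposited. cox3 had 17876 and 18047 in mtl1, against 21204 and 22760 in mtsf1. Scaled to equal totals it was called at -0.53 (limma adjusted p = 0.0449), while cox1 moved to -0.014. All 4 genes had intervals within 2-fold as deposited. The libraries of the mutants did not overlap in any of the 4, beside 66.7% of all 33 genes without overlap. Complex IV held 26.4% of the total in each mtl1 library, against 30.4% and 28.1% in mtsf1.

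None of the 5 cytochrome c maturation genes was called, beside 24.2% called over all 33 genes. All 5 lay below 0, as did the median over all genes (-0.10). The products of these 5 genes deliver heme and attach it to c-type cytochromes. ccmFN2, a fragment of the heme lyase, had 395 and 501 normalized counts in mtl1, against 727 and 605 in mtsf1, a log2 fold change of -0.58 (95% interval -1.03 to -0.12, limma adjusted p = 0.0595). It was called without mtl1 B (-0.75) and after scaling to equal totals (-0.82). ccmFC (-0.23), ccmB (-0.22), ccmC (-0.15) and ccmFN1 (-0.070) had intervals within 2-fold. ccmB had 325 and 384 in mtl1, against 533 and 316 in mtsf1, and its sign turned without mtsf1 A (0.16). Signs also turned for ccmC without mtl1 A (0.029) and for ccmFN1 after scaling by median ratio (0.0066). The list median was -0.22, and the list held 1.58% and 1.73% of the totals in mtl1, against 2.26% in each mtsf1 library. mttb, which encodes a membrane transport protein, was at -0.038, but its mtl1 libraries differed more than those of any other gene (316 and 610, against 477 and 426 in mtsf1). Without mtl1 A it lay at 0.44 and without mtl1 B at -0.51.

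**Figure D4:**
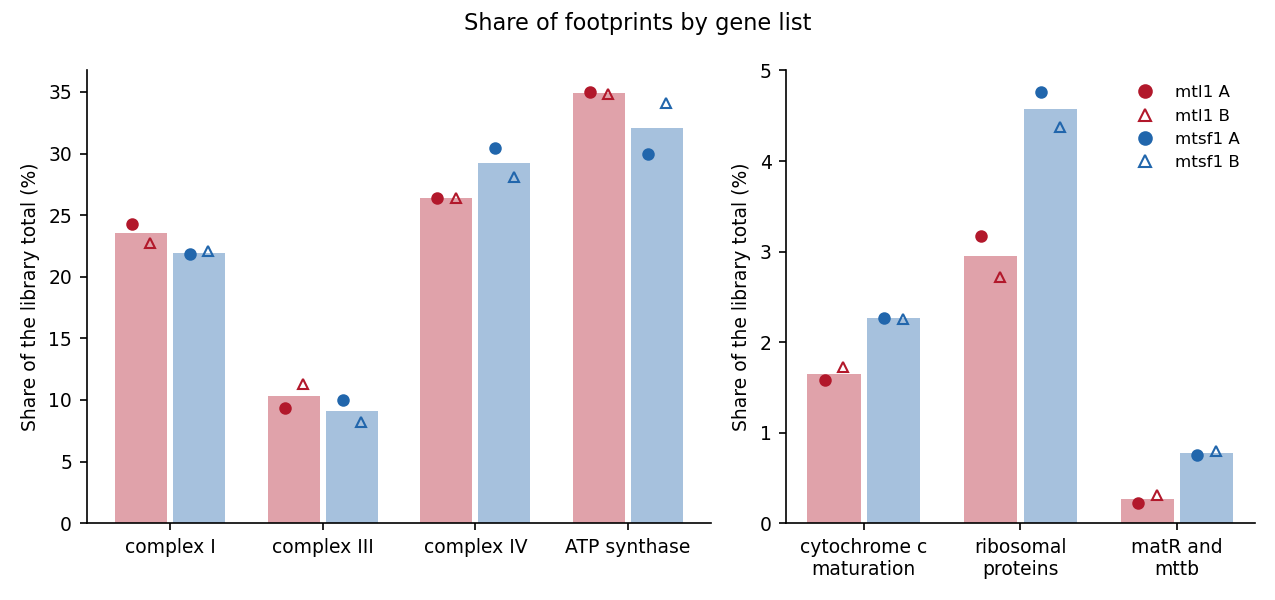
Share of each library's total normalized count held by each gene list, in mtl1 (red, left) and mtsf1 (blue, right); bars are means of 2 libraries, filled circles library A and open triangles library B, and the right panel has its own axis. The means of the 4 large groups of the left panel differed by less than 3 percentage points. Single libraries lay further apart, as at the ATP synthase (35.0% in mtl1 A and 30.0% in mtsf1 A). Ribosomal protein genes took 2.95% in mtl1 and 4.57% in mtsf1. That gap was smaller in percentage points than at complex IV (26.4% and 29.3%) or the ATP synthase (34.9% and 32.1%).

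Of the 25 genes that did not pass, 23 had a 95% interval that lay wholly within 2-fold, which bounds how far they can separate the mutants under the shared variance. The exceptions were nad6 and ccmFN2, whose intervals reached just past 2-fold lower in mtl1. For ccmFN1, mttb, nad1 and rps12 the interval lay within 1.5-fold. With each gene's own variance, 11 genes had intervals within 2-fold, so these bounds rest largely on the sharing of variance among genes. Genes with a log2 fold change near 0 but widely scattered libraries, mttb above all, are bounded by the fit and not by their own replicates.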

How the data were processed

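A small RNA kit was used for the Ribo-seq libraries, per the labels' protocols. The submitters' processing notes name FastQC, cutadapt 1.9.1, Bowtie 1.1.2 and featureCounts 1.5.0-p2 for the reads. The sources used here name no build, annotation or normalization method. Per gene and library, the deposited table gives a score, namely a normalized read count rounded by the authors to a whole number, so the depth is unknown. A pseudocount of 1 was added to the values of the 4 mutant libraries, and their log2 was fitted with limma (3.58.1, R 4.3.3) with genotype as the only term. Fold changes are on that log2 scale, mtl1 over mtsf1. A gene had to exceed 0 in 2 libraries or more, and all 33 did. The p-values, two-sided, were adjusted (Benjamini-Hochberg, 33 genes, threshold 0.05). Sharing of variance among genes added 19.0 prior degrees of freedom, so that 21.0 stood behind each test in place of 2. An exact permutation test of 2 against 2 libraries cannot go below p = 0.333 and was not used. Gene lists were described by counts and medians. The genes, lists and tests were chosen with earlier results of these data known, and every measured gene is named. Alternatives were pseudocounts of 0.1 and 10, scalings, a minimum mean of 500, variance settings, a fit with Col-0, a replicate block and leaving out each library. The 15 alternatives counted in the text also include a crossed replicate block, which was not planned and was chosen after seeing the data. Positions are 1-based on the mitochondrial sequence of TAIR10.1 (MT, 367808 bp). With every C read as T on both sides, 426 of 434 deposited editing-site sequences matched that sequence or coding sequences spliced from it. Col-0 editing tables were not used here. Other tools were Python 3.11.15, numpy 2.4.6, pandas 2.3.3 and matplotlib 3.10.9.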

Additional observations from a re-analysis of the deposited data

How the results depend on the processing

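nad7 and nad4 kept their direction and passed under all 15 alternatives, from -4.28 to -3.88 and from 5.37 to 5.69 log2 units. With each gene's own variance 4 genes passed in place of 8, and 11 in place of 23 had intervals within 2-fold. The A and B letters share no stated origin, and the A minus B differences of the mutants correlated at r = -0.14 across genes. With a replicate block 8 genes passed, and with a crossed replicate block, chosen after seeing the data, 11 did. Signs turned only for genes that were not called. After scaling to equal totals these were atp6-2 (-0.060), cox1 (-0.014), nad3 (-0.050) and rps12 (-0.16), and over genes other than nad4 and nad7 the values were -0.047, -0.00081, -0.037 and -0.14. Scaling by median ratio turned ccmFN1 (0.0066) and mttb (0.038). With each library left out in turn, atp6-1 ranged from -0.61 to 0.19, ccmB from -0.59 to 0.16, ccmC from -0.33 to 0.029, mttb from -0.51 to 0.44, nad1 from -0.24 to 0.038, nad3 from -0.093 to 0.48, nad9 from -0.38 to 0.014 and rps12 from -0.17 to 0.34. The cause of these changes was not tested. Because the depth is unknown, the counting precision of the genes with the lowest counts is unknown too.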
